A study of Mus musculus with 9 samples.

Results

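The cardiac progenitor homeobox genes are 8 genes that encode homeodomain transcription factors or, for Hopx, a homeodomain protein, with known roles in cardiac progenitors and the lineages derived from them. They are Nkx2-5, Isl1, Hopx, Msx1, Msx2, Six4, Prrx1 and Shox2. They were chosen by name, from 21911 protein-coding genes, and a CHD7 peak was assigned to a gene when the midpoint of the peak fell within the regulatory domain of that gene. A regulatory domain ran from 5 kb upstream to 1 kb downstream of the TSS (the basal domain) and was extended on each side until it met a neighbouring gene's basal domain, by at most 1 Mb. CHD7 binding was profiled by CUT&RUN, in which a nuclease tethered by an antibody releases the DNA around a chromatin protein. The cells were WT cardiac progenitor (CP) cells, obtained by differentiation of mouse embryonic stem cells of C57BL6 origin and collected at day 5. The 3 groups were anti-CHD7, IgG as the negative control and input without antibody, with 3 replicates in each and 9 libraries in all. The deposited list holds the positions of 3761 CHD7 peaks for the anti-CHD7 replicates together, with no signal, depth or value for a replicate, so no error or test accompanies the counts. The list holds no expression, and the identity of the cells could not be checked against marker genes.

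CHD7 is an ATP-dependent chromatin remodeller, and mutations of the human gene cause CHARGE syndrome, in which heart defects are frequent. ISL1 marks the second heart field, whose progenitors extend the heart tube at both poles, and NKX2-5 acts from the cardiac crescent onwards. MSX1 and MSX2 respond to BMP signals in the outflow tract and cushions, SIX4 and its relatives act with EYA cofactors in pharyngeal and other progenitors, PRRX1 is a factor of mesenchyme, and SHOX2 controls the pacemaker lineage of the sinus venosus.

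The regulatory domains of 5 of the 8 genes held a CHD7 peak, with 6 peaks in all. Msx1 had 2 peaks and Isl1, Hopx, Msx2 and Shox2 had 1 each, while Nkx2-5, Six4 and Prrx1 had none. The 200 bp around the midpoint of each of these 6 peaks are given here because they are the DNA that the position rule assigned to these genes, and the closest peak to Six4, which lies outside its domain, is given with them. All are written on the plus strand of GRCm38.p6, with matches to the motifs searched in capitals.
peak2895, Isl1, chr13:116509425-116509624: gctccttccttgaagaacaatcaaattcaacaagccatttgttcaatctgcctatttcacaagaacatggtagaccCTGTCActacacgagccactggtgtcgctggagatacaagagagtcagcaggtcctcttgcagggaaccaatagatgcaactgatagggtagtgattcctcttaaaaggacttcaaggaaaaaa
peak1030, Hopx, chr5:77110353-77110552: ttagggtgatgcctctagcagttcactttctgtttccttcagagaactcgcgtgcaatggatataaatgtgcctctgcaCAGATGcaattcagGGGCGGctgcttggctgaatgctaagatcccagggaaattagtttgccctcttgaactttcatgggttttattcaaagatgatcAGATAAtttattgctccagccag
peak1005, Msx1, chr5:37890543-37890742: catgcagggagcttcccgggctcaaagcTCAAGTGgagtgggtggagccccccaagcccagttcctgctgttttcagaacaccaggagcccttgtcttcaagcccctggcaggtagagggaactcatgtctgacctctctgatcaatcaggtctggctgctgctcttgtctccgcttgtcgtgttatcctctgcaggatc
peak1006, Msx1, chr5:37893415-37893614: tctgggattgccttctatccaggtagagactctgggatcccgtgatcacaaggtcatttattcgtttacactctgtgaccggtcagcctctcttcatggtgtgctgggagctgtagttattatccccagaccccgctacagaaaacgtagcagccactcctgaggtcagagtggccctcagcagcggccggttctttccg
peak2804, Msx2, chr13:53552475-53552674: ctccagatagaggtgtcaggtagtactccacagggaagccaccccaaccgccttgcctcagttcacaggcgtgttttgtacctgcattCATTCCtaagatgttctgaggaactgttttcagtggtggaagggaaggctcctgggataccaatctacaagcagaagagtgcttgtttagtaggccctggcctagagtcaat
peak611, Shox2, chr3:66393406-66393605: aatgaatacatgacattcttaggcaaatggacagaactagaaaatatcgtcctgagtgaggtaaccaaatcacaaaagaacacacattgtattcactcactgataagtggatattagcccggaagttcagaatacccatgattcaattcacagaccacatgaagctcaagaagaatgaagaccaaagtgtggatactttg
peak2620, near Six4, chr12:73140871-73141070: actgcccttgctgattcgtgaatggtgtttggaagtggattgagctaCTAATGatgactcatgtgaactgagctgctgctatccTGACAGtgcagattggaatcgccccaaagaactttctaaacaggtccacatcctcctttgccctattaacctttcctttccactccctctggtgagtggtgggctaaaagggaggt

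None of the 7 windows overlapped an annotated exon or UTR. The consensus letters of 12 motifs were searched on both strands, and the capitals mark 8 matches, none of which overlapped another. The Isl1 window held 1 match, to the MEIS letters TGACAG. The Hopx window held 3, to the GATA letters AGATAA, the E-box CATCTG and the SP/KLF box GGGCGG. In the first Msx1 window (peak1005) the NK2 homeodomain letters TNAAGTG were found, and in that of Msx2 the TEAD letters GGAATG. The windows of peak1006, the other Msx1 peak, and of the Shox2 peak held no match. Close to Six4, peak2620 held the ISL1 letters CTAATG and the MEIS letters.

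**Figure D1:**
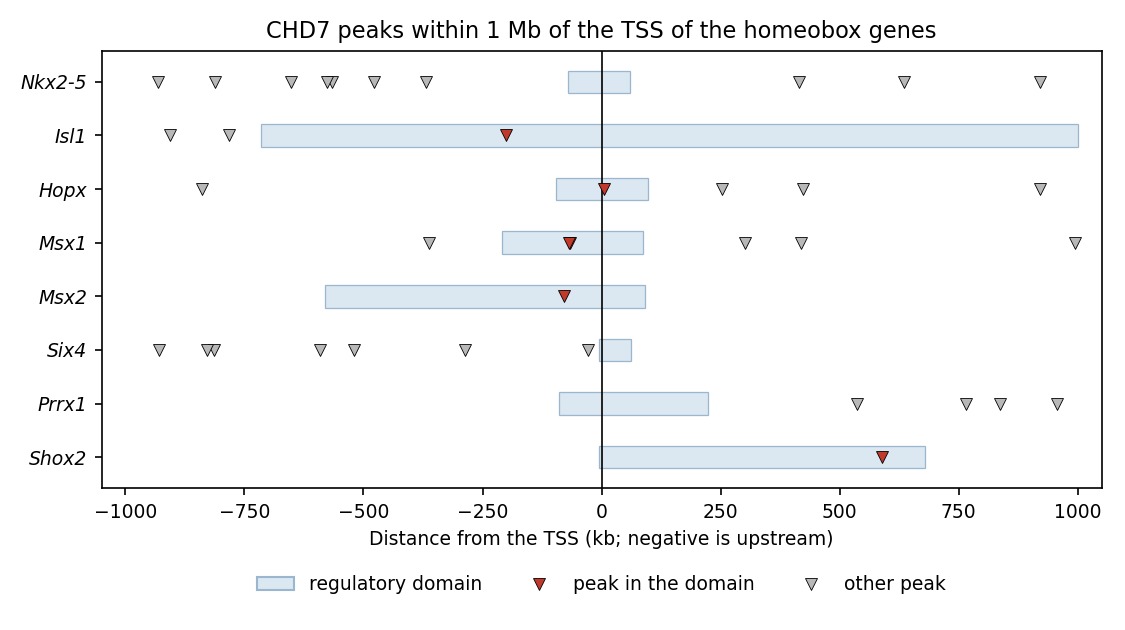
CHD7 peaks within 1 Mb of the TSS of the 8 homeobox genes, by distance from the TSS in kb. Bars are the regulatory domains, red triangles the 6 peaks within them (the 2 of Msx1 overlap) and grey triangles all other peaks. Around Nkx2-5 there were 10 peaks, all outside its domain, and around Msx2 and Shox2 1 each.

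The count of 5 of 8 genes was set against all genes. Of the 21911 genes, 4980 had at least 1 peak, which is 22.7%. Domains differ in length, and the share of genes with a peak differed between classes of length. The median domain was 304610 bp for the 8 genes and 90213 bp for all genes, and 7 of the 8 were longer than the median. Among all genes, a peak was found for 8.89% of those with a domain under 50 kb, 20.3% from 50 to 200 kb, 40.7% from 200 to 500 kb, 48.1% from 500 kb to 1 Mb and 40.7% at 1 Mb and over. None of the 8 genes fell in the shortest class. Nkx2-5, Hopx and Six4 were in the class from 50 to 200 kb, where 1 of the 3 had a peak. Msx1 and Prrx1 were in the next class, where 1 of the 2 had one. Both genes from 500 kb to 1 Mb, Msx2 and Shox2, had a peak, as did Isl1 in the longest class. If each gene had the share of its class, 2.79 of the 8 would have a peak, beside the 5 counted. Per length, the domains of the 8 genes summed to 4.07 Mb and held 1.47 peaks per Mb, close to the 1.42 per Mb of the 2648 Mb of sequenced genome. The count depends on which genes bound the domains, since only Hopx, 1 of the 8, had a peak when lincRNA genes, pseudogenes and other biotypes were counted as neighbours, where 12.6% of all genes did. Among peaks at least as wide as the median, 2 of the 8 genes, Isl1 and Msx1, had one, where 13.1% of all genes did.

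**Figure D2:**
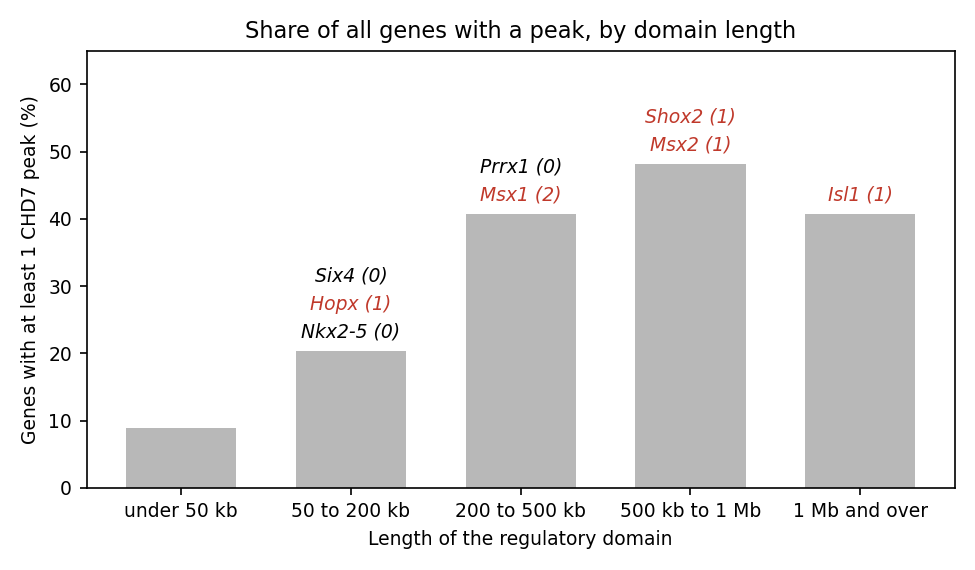
Share of all protein-coding genes with at least 1 CHD7 peak, in percent, by length of the regulatory domain. The names above the bars are the 8 homeobox genes in their class of length, with the number of peaks of each, in red where there was at least 1. The share rose from 8.89% under 50 kb to 48.1% from 500 kb to 1 Mb.

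Genes with a homeobox or homeodomain in their RefSeq description, 234 in number and including the 8, gave a broader background. A peak was found for 68 of them, or 29.1%, where the shares of their classes of length sum to 57.9 genes. Their median domain was 126417 bp. The median distance from the TSS to the closest peak was 160628 bp for these genes and 166055 bp for all genes, beside 139668 bp for the 8. For 4 of the 8 genes the closest peak was nearer than the median over all genes.

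The peaks were mostly distal. Of the 6 peaks, 5 lay over 50 kb from the TSS of their gene, where 53.5% of all 6821 gene and peak pairs did. The median distance was 74216 bp for the 6 and 57398 bp for all pairs. A longer domain allows longer distances. The median domain was 304610 bp for the 8 genes and 202730 bp for all genes with a peak, and the part of domain length was not tested. No basal domain of the 8 genes held a peak, and over all genes 3.16% of basal domains did. RefSeq gives 10 promoters for the 8 genes, each around an annotated start, and no peak overlapped any of them. The share of RefSeq promoters of all genes that a peak overlapped was not counted. Upstream of the TSS lay 4 of the 6 peaks and downstream 2, while 44.0% of all pairs were upstream. The 2 Msx1 peaks are among the 4. The domains of Msx1 and Msx2 reached farther upstream than downstream, and those of Isl1, Hopx and Shox2 farther downstream. The midpoints of 5 peaks were intergenic and that of 1 was intronic, where 39.9% of all peaks were intergenic and 44.3% intronic in protein-coding genes. The TSS of the homeobox gene was the nearest protein-coding TSS for 5 of the 6 peaks, where the assigned gene had the nearest TSS in 55.0% of all pairs. Each of the 6 was also assigned to the gene on its other side, as were 81.1% of all peaks to 2 genes.

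**Figure D3:**
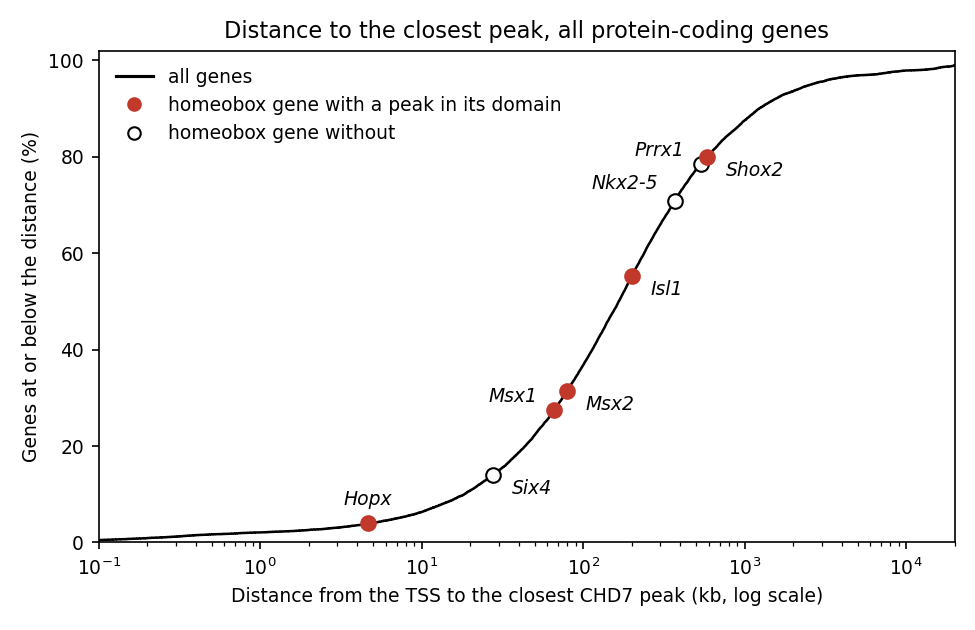
Share of all protein-coding genes, in percent, whose closest CHD7 peak lies at or below a given distance from the TSS (kb, log scale). Filled points are the 5 homeobox genes with a peak in their domain and open points the 3 without. Hopx, at 4668 bp, was the closest to a peak of the 8, and Shox2, at 588265 bp, the farthest.

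Nkx2-5 encodes an NK2 homeodomain factor of the early cardiac programme. Its TSS is at position 26841565 of chromosome 17, on the minus strand, and its domain of 130 kb is bounded by Kifc5b upstream and Bnip1 downstream. No peak fell in it. The closest was peak3396, 369279 bp upstream (chr17:27210528-27211161), which was assigned to Lemd2 and Grm4 and lay 6375 bp upstream of the Lemd2 TSS. On the other side, peak3395 lay 415056 bp downstream (chr17:26425983-26427036), with Neurl1b and Dusp1. A closer peak was found for 70.8% of all genes. The wider region was rich in peaks, with 10 within 1 Mb of the TSS against a median of 4 over all genes, and 91.5% of genes had fewer. None of the 10 lay in its domain.

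Isl1 encodes a LIM-homeodomain factor of the second heart field. It lies on chromosome 13 with its TSS at 116309689, in a gene desert that gave it the longest domain of the 8, at 1715 kb. It held only peak2895 (chr13:116508933-116510118), 199836 bp upstream, which corresponds to 0.583 peaks per Mb. The peak was 1186 bp wide, and 81.2% of all peaks were narrower. It lay between Isl1 and Parp8, an ADP-ribosyltransferase gene whose TSS was 515870 bp away, and it was assigned to both. No gene of any biotype overlapped its midpoint, and the nearest TSS of any annotated transcript, that of a processed pseudogene, was 147831 bp away. The peak next to it upstream, peak2896, lay 67546 bp beyond the domain and was assigned to Parp8 and Emb. Downstream of Isl1 no peak was found for 1478839 bp. Over the whole of peak2895, rather than its central 200 bp, there were also matches to the GATA, TEAD and caudal letters, but none to those of ISL1 or of the homeodomain. The study's authors report that ISL1 binds at this peak in CP cells, so missing letters do not show missing binding.

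Hopx encodes an atypical homeodomain protein that does not bind DNA and modulates SRF activity. Its peak was the closest to a TSS among the 8 genes. It was peak1030 (chr5:77110190-77110717), 528 bp wide and 4668 bp downstream of the TSS at 77115121, within an intron of Hopx, and only 3.93% of genes had a closer peak. Hopx has another RefSeq promoter, and the edge of the peak lay 14673 bp from it and 4357 bp from that of the upstream start, so the peak fell between the 2. Thegl, a gene named for its likeness to a spermatid protein, was the other gene assigned, with its TSS 94430 bp away. No other peak lay within the domain of 193 kb. This window held more of the motifs searched than any of the other 5, with 3 of the 12 families, where the median over all peaks was 1.

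Msx1 and Msx2 encode paralogous homeodomain repressors downstream of BMP signalling. Both had peaks upstream, at 66060 bp and 68932 bp for Msx1 and at 79501 bp for Msx2. The Msx1 peaks were peak1005 (chr5:37890379-37890907, 529 bp) and peak1006 (chr5:37893067-37893964, 898 bp). Their midpoints were 2872 bp apart and 2159 bases separated their edges. Another peak within 5 kb was found for 2.79% of all peaks, and the median distance to the nearest other peak was 131166 bp. Of the 905 genes with exactly 2 peaks, 11 had them as close as or closer than those of Msx1, or 1.22%. Only 5.88% of all genes had 2 or more peaks. A lincRNA gene, Gm20052, had its TSS 257 bp from the midpoint of peak1006 and 3129 bp from that of peak1005. Peak1006 also held the most CpGs of the 6 windows, 8 in 200 bp against a median of 2. Stx18, a syntaxin gene, was assigned both peaks, with its TSS 148099 bp and 145227 bp away. The GC content of the Msx1 peaks, 53.3% and 53.8%, was above the median of 47.5% over all peaks.

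The Msx2 peak, peak2804 (chr13:53552251-53552900), was 650 bp wide and was the only peak within 1 Mb of the Msx2 TSS, where 12.4% of genes had fewer. The next peak upstream was 1143600 bp from the TSS and the next downstream 1685442 bp. Drd1, the dopamine D1 receptor gene, shared the peak, with its TSS 503083 bp away. Its GC content was 48.9%.

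The 3 genes most like Msx1, by number of peaks, length of the domain and distance of the closest peak, were Pcbd1, Phf2 and Mc3r. Their closest peaks were at 65952 bp, 64422 bp and 68424 bp. The peaks of these genes were farther apart than those of Msx1, with a spacing of 59320 bp, 188570 bp and 34033 bp.

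Six4 encodes a homeodomain factor of the sine oculis family and lies on chromosome 12. Its domain of 66.5 kb was the shortest of the 8. It lay almost wholly downstream of the TSS, since the TSS of Mnat1, a gene for a subunit of the CDK-activating kinase, lies 10292 bp upstream. No peak fell in it. A peak nonetheless lay 27546 bp upstream of the TSS at 73113425, closer than for Isl1, Msx1, Msx2 or Shox2, and only 13.9% of genes had a closer one. This was peak2620 (chr12:73140300-73141642), 1343 bp wide, in an intron of Mnat1 and 17254 bp downstream of its TSS. It lay 22255 bp beyond the domain of Six4 and was assigned to Mnat1 and Trmt5. The same peak was the closest to Six6, at 201079 bp, which had no peak in its domain. On the other side of Six4 no peak was found for 1319420 bp.

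Prrx1 encodes a paired-related homeodomain factor of mesenchyme. Its domain on chromosome 1 was 312 kb long and held no peak. The closest was peak189 (chr1:162777873-162778295), 535626 bp downstream of the TSS at 163313710, assigned to Fmo4 and Prrc2c. Upstream, the closest was 1800964 bp away. The interval without a peak around the TSS was therefore 2336590 bp, where the median over all genes was 813779 bp, and 76.9% of genes had a shorter one. For 78.5% of genes there was a closer peak.

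Shox2 encodes a homeodomain factor of the sinoatrial node. Its domain of 685 kb lay almost wholly downstream, since the Rsrc1 TSS is 3901 bp upstream. The peak assigned to it, peak611 (chr3:66393308-66393704), was 588265 bp downstream of the TSS at 66981771 and was the farthest of the 6. Under 7 of the 11 alternative settings of domains or peaks it was not assigned to Shox2 or was left out. Among protein-coding genes, it was the only one of the 6 for which another gene had the nearest TSS. That gene was Veph1, 96669 bp away. The nearest TSS of any biotype was that of a unitary pseudogene, at 28967 bp. The peak was 397 bp wide, and only 1.73% of all peaks were narrower. Soft-masked repeat sequence made up 99.5% of its bases, where the median over all peaks was 13.2%, and only 8 of the 3761 peaks were masked over at least 99% of their length. In the other 5 peaks the masked share ran from 4.16% to 19.8%. No other peak lay within 1 Mb of the Shox2 TSS.

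**Figure D4:**
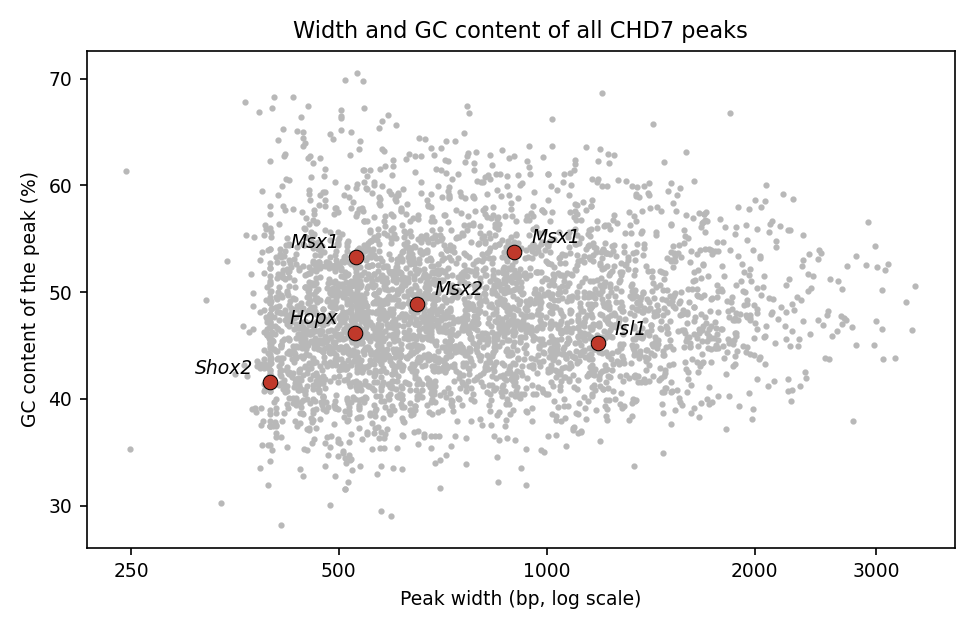
GC content, in percent, against width (bp, log scale) for all 3761 CHD7 peaks, in grey, and for the 6 peaks of the homeobox genes, in red. Isl1 had the widest of the 6, at 1186 bp, and Shox2 the narrowest, at 397 bp.

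In width and base composition the 6 peaks lay within the range of the others. Their median width was 589.5 bp against 703 bp, and their median GC content 47.6% against 47.5%. Of the 3761 windows of 200 bp, 11.8% held the GATA letters, 11.4% the NK2 homeodomain letters, 11.8% the TEAD letters, 15.4% the MEIS letters, 16.5% the E-box and 8.67% the SP/KLF box, and each of these was in 1 of the 6. The homeodomain letters TAATTA, in 4.55% of all windows, were in none of the 6. The same held for the ISL1 letters (7.74%), the T-box letters GGTGTGA (2.71%), the MEF2 letters TAAAAATA (1.94%), the caudal letters CATAAA (9.15%) and the CTCF consensus (0.665%). At least 1 of the 12 motifs was in 4 of the 6 windows, where 66.6% of all windows held at least 1. A match describes the letters of the window and does not show that a factor was bound. Over whole peaks, which are longer, the homeodomain, T-box, MEF2 and CTCF motifs were in none of the 6, where 673, 469, 301 and 63 of all 3761 peaks held them. The ISL1 letters were in 1 (peak1006 of Msx1), where 26.9% of all peaks held them, and the NK2 homeodomain letters in 1 (38.2%). The TEAD letters were in 2 (39.1%). The GATA (36.8%), MEIS (47.7%), E-box (49.5%), SP/KLF (23.4%) and caudal (35.8%) letters were each in 3 of the 6.

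Genes that work with the 8 were examined as 5 lists of 36 genes in all, of which 20 had a peak. The shares of their classes of domain length sum to 12.2 genes.

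Among 9 paralogues, 4 had a peak, where their class shares sum to 2.36. Nkx2-3 had 2, the closest of them 44 bp downstream of its TSS. Msx3 had 1, at 3875 bp downstream. Six3 and Six2, which are neighbours, shared peak3503, which lay 1832 bp downstream of the Six3 TSS and 65608 bp downstream of that of Six2, and Six3 had another. Nkx2-6, Isl2, Six5, Six6 and Prrx2 had none. A peak lay 12684 bp upstream of Prrx2, outside its domain.

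Of 11 partners and targets of NKX2-5 and ISL1, 6 had a peak, where their class shares sum to 3.90. The GATA factor genes Gata4 and Gata6 had 2 and 3 peaks, the closest 3655 bp downstream and 12239 bp upstream. Tbx5 had 2, with the closest at 13318 bp downstream. The bHLH factor genes Hand1 and Hand2 had 1 and 2, all distal, with the closest at 97553 bp and 387794 bp upstream. Fgf10, a ligand of the second heart field, had 3, the closest 44446 bp downstream. Tbx20, Mef2c, Srf, Ldb1 and Fgf8 had none, although a peak lay 9924 bp upstream of the Fgf8 TSS, outside its domain.

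The BMP inputs of the MSX genes had a peak in 6 of 7 cases. Bmp4 had 7 peaks, a number that no other gene exceeded, and the closest lay 79355 bp upstream. Bmp2 and Smad1 had 3 each, with the closest at 12154 bp upstream and 23795 bp downstream. Bmp7 had 2, and Smad4 and Smad6 had 1 each. Smad5 had none. The class shares of these 7 genes sum to 2.44.

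Of 6 EYA and DACH genes, cofactors of the SIX4 family, 3 had a peak, with 1 for Eya1, 1 for Eya2 and 2 for Dach1. Their class shares sum to 2.31, and the closest peaks lay 374396 bp, 157910 bp and 147087 bp downstream of their TSSs. Eya3, Eya4 and Dach2 had none. In the sinus node programme of SHOX2, only Tbx3 of 3 genes had a peak. Tbx3 had 3, and the closest, 35848 bp downstream, was also assigned to Tbx5. Tbx18 and Hcn4 had none, where the class shares of the 3 genes sum to 1.22.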

How the data were processed

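The authors deposited 1 list for the 3 anti-CHD7 libraries, which gives each CHD7 peak by its first and last position in bp. Per the submitters' processing notes and the study's methods, the authors trimmed reads with fastp 0.20.1, aligned them to mm10 with BWA 0.7.17.4 and called peaks with MACS2 2.1.2 against IgG. They retained peaks found in more than 1 replicate, and deepTools 3.1.0 was used for coverage. The calling threshold was not given in the sources used here. Depth and the spread between replicates are unknown, so the precision of the counts is unknown. Neither the reads nor the control libraries (IgG and input) were analysed here.

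Starts were read as counted from 0. Chromosome names and lengths of GRCm38.p6 were checked against the list, and no peak ran past a chromosome end. GENCODE M21 gave 1 TSS per protein-coding gene, with coding transcripts first, then APPRIS level, then spliced length. Distances run from the midpoint of a peak to that TSS. Sequences were read with pysam 0.24.0 and samtools 1.23.1 under Python 3.11.15, and figures drawn with matplotlib 3.10.9. The domain rule and the motif search were checked on simulated data. Masked bases are those in lower case in the RefSeq genome.

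The members and the lists were chosen with earlier results of these data known, and no test was made. Genes named were the 8 members, genes sharing a peak with them, the nearest genes, the genes of the 5 lists and the 3 genes most like Msx1 (those with the same number of peaks and the smallest sum of absolute log10 differences in domain length and in distance of the closest peak). Other genes next to a member or a nearby peak, and the genes described as homeobox or homeodomain, were chosen after the peaks were seen. Of the lists, 2 genes are not reported here. The alternatives were another TSS, all gene biotypes, extensions of 200 and 500 kb, the basal domain alone, the nearest TSS, any overlap of at least 1 bp, peaks at least as wide as the median, merging of peaks less than 1 kb apart, starts counted from 1, and motif windows of 400 bp or the whole peak.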

Additional observations from a re-analysis of the deposited data

How the results depend on the processing

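With all gene biotypes setting the domains, 1 gene of the 8 (Hopx) had 1 peak and 0 peaks lay over 50 kb from the TSS. The other peaks then fell in the domains of lincRNA genes and pseudogenes instead, and 2771 protein-coding genes had a peak. With the basal domain alone, 0 of the 8 genes and 0 peaks were left, and 693 of all genes. With peaks at least as wide as the median, 2 genes (Isl1 and Msx1) and 2 peaks were left, both over 50 kb away, and 2862 of all genes. With the single nearest TSS, 3105 of all genes had a peak. The Shox2 peak was not assigned to Shox2 under extensions of 200 or 500 kb, the nearest TSS or the most upstream TSS, which left 4 genes and 5 peaks. Under the most upstream TSS, Rsrc1 took the peak. Nkx2-5, Six4 and Prrx1 had 0 peaks under each of the 11 settings of domains or peaks. Several of these settings only shorten domains or drop peaks, so they could not have added one. The closest peaks lay 298754 bp, 22255 bp and 312587 bp beyond the domains of Nkx2-5, Six4 and Prrx1. The unchanged zeros are therefore no further evidence that binding was absent. Of 42 values of the 5 main counts, 30 stayed within 1.5 times. At least 1 motif was in 4 of the 6 windows of 200 bp, in 6 with 400 bp (88.0% of all peaks) and in 6 with the whole peak (96.4%). Of 24 counts of single motifs in these longer windows, 13 rose by more than 1.5 times or from 0.

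No paired analysis was possible because the list pools the replicates and no result comes from a test. Leaving out a replicate was not possible for the same reason.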

Other observations

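All 8 genes are annotated on the minus strand, over 6 chromosomes. With all gene biotypes setting the domains, both Msx1 peaks were assigned to Gm20052 alone. The Hopx peak was then shared with Hopxos, an antisense gene, 15921 bp away. The Msx2 peak went to the lincRNA genes Gm34022, at 19318 bp, and 9530014B07Rik, at 86618 bp.

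The number of peaks within 1 Mb and the presence of a peak in the domain were set side by side for the 8 genes. Nkx2-5 and Six4, with 10 and 7 peaks within 1 Mb of the TSS, had none in their domains. Msx2 and Shox2, with 1 peak each within 1 Mb, had that peak in their domains. Msx1, Hopx and Isl1, with 6, 5 and 3 within 1 Mb, had a peak in their domains, and Prrx1, with 4, had none. The median over all genes was 4. Domains of 130 kb and 66.5 kb for Nkx2-5 and Six4 and of 672 kb and 685 kb for Msx2 and Shox2 stand beside these counts, and the part of domain length was not tested.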
